A study of Mus musculus with 4 samples.

Results

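Mitotic and G2/M genes are described here in cultured mouse oesophageal cells that carry the NRF2 E79Q substitution, set against wild-type cells. The members are 37 genes listed by symbol, all found among the 24444 genes of the deposited table, and all 37 lay high enough to be tested among 10857 genes. They were sorted into 9 role groups, from the kinases and cyclins that start mitosis to the proteins that divide the cell. The mutant cells, labelled Nrf2-HET, carry an Nfe2l2-E79Q cassette brought in by CRISPR/Cas9 microinjection, in 2 libraries. The wild-type cells (WT) received no treatment and no cassette, also in 2 libraries. Both groups are of strain C57BL/6J and were sequenced as poly(A) RNA. Per the file headers every library name also carries the word SV40, which the labels do not explain. The large T antigen of SV40 is known to bind RB proteins and p53, and no label says whether either group of cells carries it. The design text of the series speaks of a human cell line and another gene; the groups here follow the sample labels. The title calls the mouse conditional, but how the allele was switched on, the age and the number of animals are not stated. The p-values therefore measure only the disagreement between the 2 same-numbered pairs of libraries, pooled over genes, which may be technical.

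As background, cells prepare for division in G2 and divide in M phase, driven by cyclin-dependent kinase 1 with cyclins A and B. Aurora and Polo-like kinases then build the spindle, kinetochores tie chromosomes to it, and the anaphase-promoting complex (APC/C) destroys cyclins to end mitosis. Genes of these steps are transcribed together late in the cycle, under the DREAM complex, which holds them down, and the B-MYB-MuvB complex and FOXM1, which raise them. In stratified epithelium such as the oesophagus, dividing cells sit in the basal layer, and these genes are commonly read as marks of it. NRF2 is the transcription factor encoded by Nfe2l2 that drives antioxidant genes.

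The deposited values are variance-stabilised (VST) values, close to log2 of the normalised count at high counts and compressed at low ones. They had been centred by replicate number, so differences are given as E79Q minus wild type with the moderated SE over 2 replicate pairs, and a gene was called at a limma adjusted p under 0.05. Normalised counts were obtained by inverting the VST, and they summed to 13652117 and 13928658 per E79Q library and to 13722655 and 13479863 per wild-type library. The counts come from centred values, so they are not the counts each library itself gave. Their sums are also after the authors' scaling, so the depth itself is unknown. Nfe2l2 differed by -0.10 ± 0.05 (limma adjusted p = 0.154; -0.15 with an adjusted p of 0.0139 without E79Q replicate 2 and 0.0160 without wild-type replicate 2, and -0.13 with 0.0496 after quantile normalization), and the level of a gene with a substitution does not check the labels. All 12 markers of stratified epithelium were detected, with summed normalised counts of 145000 to 152000 in E79Q libraries and 146000 to 152000 in wild-type libraries. Single markers moved in both directions: Krt15 (-0.58), Sox2 (-0.45), Epcam (-0.22) and Krt14 (-0.13) were called lower, and Krt13 (0.49), Itga6 (0.73) and Dsg3 (0.74) higher. The 10 fibroblast markers summed to 229 to 244 in E79Q and 602 to 603 in wild type, with Lum at 0 in all libraries. Endothelial markers summed to 10.7 to 14.8 in E79Q and 17.4 to 24.5 in wild type, and muscle markers to 19.0 to 23.2 in E79Q and 21.5 to 29.4 in wild type, with Myod1 at 0. White blood cell markers summed to 377 to 414 in E79Q and 168 to 190 in wild type, nearly all of it Cd68, while Ptprc, Cd3e and Cd79a were at 0. Of the 10 fibroblast markers 2 were tested, and Col1a1 alone was called lower. Its normalised count was 44.9 and 36.7 in E79Q and 305 and 333 in wild type. Among the untested fibroblast markers Dcn and Thy1 lay higher in E79Q, and Col1a2, Col3a1 and Postn lower. The 7 epithelial markers, the fibroblast sum and Cd68 moved with genotype, and their part in the results that follow was not tested.

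Mitotic genes were modestly lower in E79Q cells as a group. Of the 37 members 24 were called lower (64.9%) and 0 higher, against 18.9% called lower and 21.5% called higher among all genes tested. The members were chosen with earlier results of these data known, so the contrast describes the list and does not test it. At an unadjusted limma p under 0.05 the counts were 27 members lower and 0 higher, beside 22.7% lower and 25.5% higher of all genes tested. The median difference of the members was -0.21, where the median of all genes tested was 0.01. On the count scale the median E79Q to wild-type ratio was 0.835, and members ran from 0.691 (Plk1) to 1.03 (Lbr). In bulk RNA, fewer cells in G2 and M and less of these RNAs per cell cannot be told apart.

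The values had been centred by replicate number, which takes out the spread between replicate pairs and makes the deviations in the 2 genotypes mirror each other, so the 4 values of a gene are not independent. The summed normalised count of the 37 genes was 80349 and 80511 in E79Q libraries, against 94471 and 94454 in wild-type libraries. That is 0.589% and 0.578% of all normalised counts in E79Q, and 0.688% and 0.701% in wild type. In 33 members both E79Q libraries lay below both wild-type libraries, a pattern found in 38.1% of all genes tested. Groups overlapped in the other 4, Bub1, Nuf2, Hmmr and Lbr. With 2 pairs an exact two-sided permutation test of 1 gene cannot give a p below 0.5, so every call rests on the spread pooled over genes by limma.

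**Figure D1:**
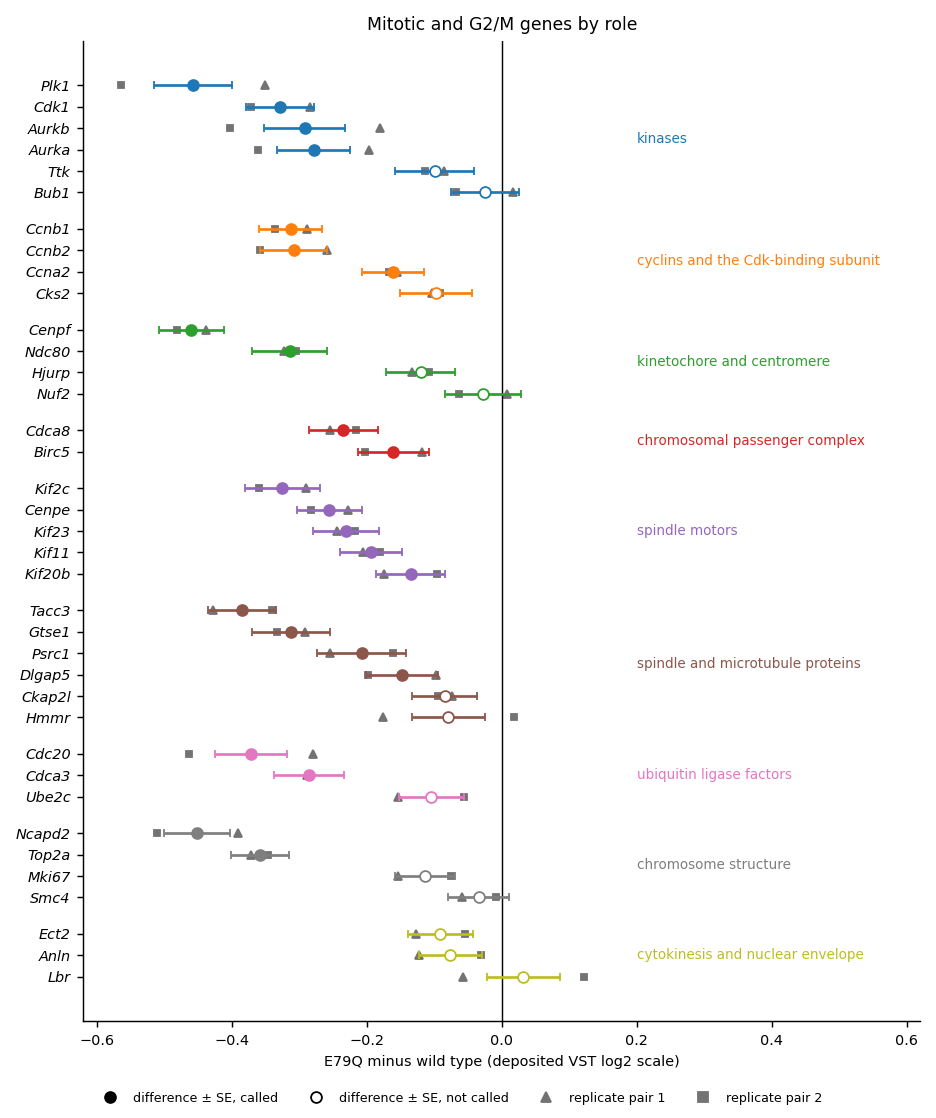
Difference of E79Q minus wild type on the deposited VST log2 scale for the 37 members, grouped by role; circles with bars are the mean ± SE (filled where called, adjusted p under 0.05), and triangles and squares are replicate pairs 1 and 2. 36 of the 37 circles lie below 0, with Cenpf, Plk1 and Ncapd2 lowest and Lbr alone above 0.

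The members share promoter letters that the choice of genes did not use. A cell cycle homology region (CHR, searched as TTTGAA or TTCGAA) is the element to which MuvB complexes bind, and the CCAAT box is bound by NF-Y. Promoter windows of 250 bases before to 50 after the start were taken from RefSeq (build GRCm38.p6) and matched 33 members in 36 windows, since Ect2, Gtse1 and Psrc1 have a pair each. Aurkb, Ccna2, Dlgap5 and Smc4 had no entry. Both strands were searched, and overlapping matches were counted. The windows of each pair overlap, so a site in their shared stretch was counted in both. Shown are the 3 called members with the largest difference that hold a CHR (Cenpf, Plk1 and Ncapd2), and then both B-type cyclins and Cdk1, which form the mitosis-promoting kinase. Capitals mark CHR and CCAAT matches, read as ATTGG or TTCAAA where they lie on the other strand.
Cenpf (chr1:189688037-189688336, minus strand): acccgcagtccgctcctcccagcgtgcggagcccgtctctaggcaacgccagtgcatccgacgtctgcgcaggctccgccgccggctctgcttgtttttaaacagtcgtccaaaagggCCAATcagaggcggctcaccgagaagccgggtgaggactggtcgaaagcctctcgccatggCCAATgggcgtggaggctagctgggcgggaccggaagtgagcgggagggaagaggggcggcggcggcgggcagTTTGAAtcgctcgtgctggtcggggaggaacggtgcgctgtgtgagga
Plk1 (chr7:122159185-122159484, plus strand): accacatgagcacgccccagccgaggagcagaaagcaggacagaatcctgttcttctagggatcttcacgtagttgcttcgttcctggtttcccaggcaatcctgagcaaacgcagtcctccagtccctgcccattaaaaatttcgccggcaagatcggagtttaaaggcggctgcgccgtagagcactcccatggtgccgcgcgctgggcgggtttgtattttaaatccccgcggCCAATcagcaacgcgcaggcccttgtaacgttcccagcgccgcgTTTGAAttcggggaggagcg
Ncapd2 (chr6:125191537-125191836, minus strand): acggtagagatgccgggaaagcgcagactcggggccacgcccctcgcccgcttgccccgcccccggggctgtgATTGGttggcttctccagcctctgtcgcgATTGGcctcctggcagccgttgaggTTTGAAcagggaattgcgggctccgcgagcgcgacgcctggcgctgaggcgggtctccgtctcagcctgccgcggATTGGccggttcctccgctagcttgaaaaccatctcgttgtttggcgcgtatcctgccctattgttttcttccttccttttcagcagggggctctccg
Ccnb1 (chr13:100786437-100786736, minus strand): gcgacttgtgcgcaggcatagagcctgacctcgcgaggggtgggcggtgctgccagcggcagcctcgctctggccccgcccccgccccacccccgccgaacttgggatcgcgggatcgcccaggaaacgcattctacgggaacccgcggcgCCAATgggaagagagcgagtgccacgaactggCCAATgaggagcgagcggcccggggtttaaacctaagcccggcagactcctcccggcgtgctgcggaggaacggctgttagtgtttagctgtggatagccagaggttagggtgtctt
Ccnb2 (chr9:70421505-70421804, minus strand): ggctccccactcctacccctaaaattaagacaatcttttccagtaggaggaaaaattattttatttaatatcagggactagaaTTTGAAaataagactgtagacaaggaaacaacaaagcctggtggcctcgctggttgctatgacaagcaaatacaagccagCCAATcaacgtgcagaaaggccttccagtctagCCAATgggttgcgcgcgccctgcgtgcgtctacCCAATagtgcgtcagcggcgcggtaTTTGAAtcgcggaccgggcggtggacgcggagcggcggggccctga
Cdk1 (chr10:69352863-69353162, minus strand): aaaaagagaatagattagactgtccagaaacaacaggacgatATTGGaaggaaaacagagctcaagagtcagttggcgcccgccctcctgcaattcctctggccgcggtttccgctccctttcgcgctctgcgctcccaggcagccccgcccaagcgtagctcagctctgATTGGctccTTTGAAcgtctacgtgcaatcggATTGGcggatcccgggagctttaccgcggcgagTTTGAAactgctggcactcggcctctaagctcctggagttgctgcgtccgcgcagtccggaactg

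A CHR was found in 28 of 36 member windows (77.8%), against 13.6% of the windows of tested genes and 19.2% of all 32851 windows. Cenpf holds it 3 bases into the transcript and Ccnb2 5 bases in, with a further match 167 bases before the start. In Plk1 the CHR begins at base 31 of the transcript, in Cdk1 at 71 and 15 bases before the start, and in Ncapd2 at 123 bases before it. The Ccnb1 window holds no CHR by these letters, but 2 CCAAT boxes, at 99 and 67 bases before the start.

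Many matches in members lay near the start. Of 39 CHR matches in members 28 (71.8%) lay from 50 bases before the start onwards, against 24.6% of matches in tested genes. The CHR sites of Ect2 and Psrc1 were counted in both overlapping windows of each gene. A CCAAT box was present in 80.6% of member windows and in 37.9% of those of tested genes, and 2 or more in 61.1% of member windows and 14.5% of those of tested genes. The CHR and the CCAAT box occurred together in 66.7% of member windows and 5.67% of those of tested genes. An antioxidant response element core (TGACNNNGC), the NRF2 site, matched 8 member windows (22.2%), against 14.4% of those of tested genes. Both Ect2 windows hold the same match of this core. An E2F site (TTTGGCGC or TTTCCCGC) matched 1 member window, that of Ncapd2 (2.78%), and 3.17% of those of tested genes. These matches describe letters in a window and show no binding.

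Within the members, differences were set beside the motifs. The 26 genes with a CHR had a median difference of -0.22, with 16 called lower, and the 7 without one a median of -0.26, with 5 called lower. The 7 genes with an antioxidant response element core, which are Anln, Bub1, Ccnb1, Cdca8, Cenpe, Ckap2l and Ect2, had a median of -0.09 with 3 called lower, and the 26 without it a median of -0.25 with 18 called lower. These medians were not tested against each other. Among all genes tested, not split by motif, 18.9% were called lower.

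**Figure D2:**
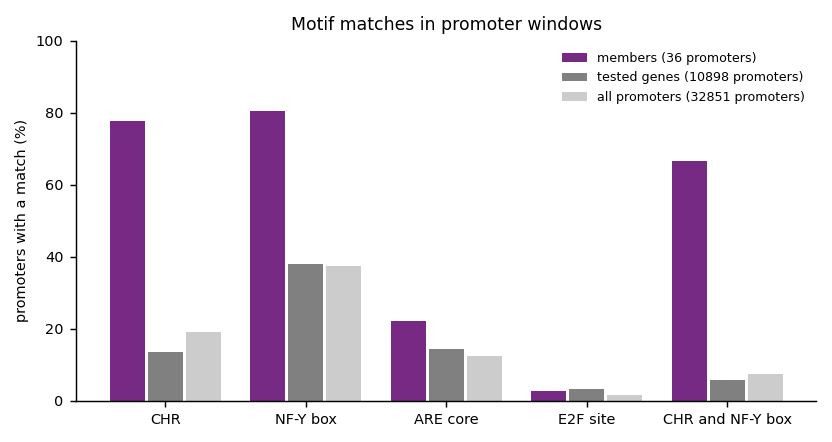
Share of promoter windows (percent, y axis) that hold each motif, in 36 windows of members, 10898 of tested genes and 32851 in all; the NF-Y box is the CCAAT box and ARE is the antioxidant response element. The CHR stands at 77.8% in members and 13.6% in tested genes, while the E2F site is rare in every set.

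Kinases of mitosis were called lower in 4 of 6 cases, with a median difference of -0.29, beside 18.9% called lower of all genes tested. Plk1, the Polo-like kinase that matures centrosomes and drives mitotic entry, lay at 10.52 and 10.41 in E79Q libraries, against 10.87 and 10.97 in wild type (VST log2). It fell by 0.46 ± 0.06 (limma adjusted p = 1.32e-05), and its normalised count was 1222 and 1119 in E79Q and 1622 and 1765 in wild type. Cdk1, the catalytic subunit that starts mitosis, was at 10.91 and 10.87 in E79Q and at 11.20 and 11.24 in wild type. Cdk1 fell by 0.33 ± 0.05 (limma adjusted p = 8.81e-05), a count ratio of 0.774. For both genes both E79Q libraries lay below both wild-type libraries, a pattern found in 38.1% of all genes tested. Because of the centring, the gap within a genotype was the same size in E79Q and wild type, so it gives no independent spread.

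The Aurora kinases fell by like amounts. Aurka, which acts at centrosomes and spindle poles, lay at 10.71 and 10.63 in E79Q and at 10.91 and 10.99 in wild type, a fall of 0.28 ± 0.05 (limma adjusted p = 0.000793). Aurkb, the kinase of the chromosomal passenger complex, lay at 10.22 and 10.11 in E79Q and at 10.40 and 10.51 in wild type, a fall of 0.29 ± 0.06 (limma adjusted p = 0.00121). In each of these 4 kinases pair 2 differed more than pair 1, by most in Aurkb (-0.18 in pair 1 and -0.40 in pair 2). Among all 37 members pair 2 had the lower difference in 19. The checkpoint kinases Ttk and Bub1 were not called, apart from Ttk without the replicate block (limma adjusted p = 0.0137). Ttk (MPS1), which starts the spindle checkpoint, was at 9.68 and 9.66 in E79Q and 9.76 and 9.78 in wild type, a difference of -0.10 ± 0.06 (limma adjusted p = 0.187, 95% interval -0.22 to 0.02). Bub1, which recruits checkpoint proteins to kinetochores, was at 11.09 and 11.05 in E79Q and 11.08 and 11.12 in wild type, a difference of -0.03 ± 0.05 with an interval from -0.13 to 0.08. Its libraries overlapped, and pair 1 differed by 0.02 and pair 2 by -0.07.

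**Figure D3:**
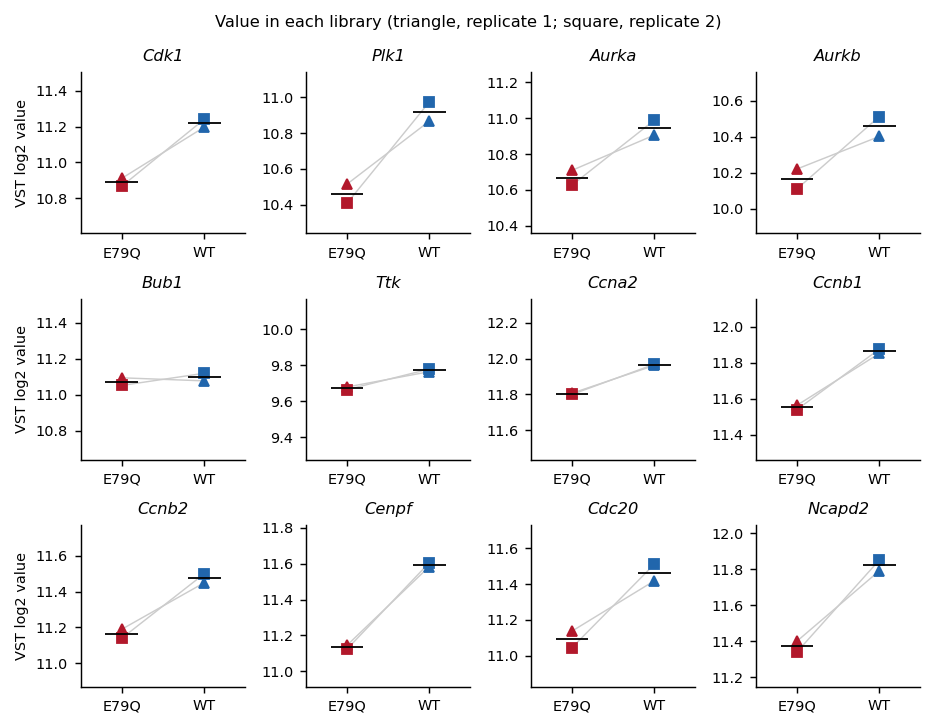
VST log2 value of 12 members in each library, E79Q at left and wild type at right, with replicate 1 as triangles, replicate 2 as squares, the mean as a bar and each pair joined by a line; each panel spans the same height. Plk1, Cenpf and Ncapd2 show gaps of 0.45 to 0.46 between group means, and Bub1 shows overlapping libraries.

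All 3 cyclins were called lower, beside 18.9% of all genes tested. Ccnb1, the main B-type partner of Cdk1, lay at 11.56 and 11.54 in E79Q and at 11.85 and 11.88 in wild type, a fall of 0.31 ± 0.05 (limma adjusted p = 7.08e-05). Ccnb2 was at 11.19 and 11.14 in E79Q and at 11.45 and 11.50 in wild type, also a fall of 0.31 ± 0.05 (limma adjusted p = 0.000136). Ccna2, which acts from S phase to early mitosis, fell less, by 0.16 ± 0.05 (limma adjusted p = 0.0109), with 11.81 and 11.80 in E79Q and 11.96 and 11.97 in wild type. By count ratio the B-type cyclins stood at 0.792 (Ccnb1) and 0.790 (Ccnb2), and Ccna2 at 0.887. The gap between Ccna2 and the B-type cyclins was not tested. Cks2, the small subunit that helps Cdk1 find its substrates, was at 10.24 and 10.25 in E79Q and 10.35 and 10.34 in wild type, a difference of -0.10 ± 0.05 that was not called (limma adjusted p = 0.159; 0.00886 without the replicate block).

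Kinetochore genes split. Cenpf, a large protein of the outer kinetochore and nuclear envelope that peaks in G2, had the largest difference of all members. Its values were 11.15 and 11.12 in E79Q and 11.58 and 11.61 in wild type, a fall of 0.46 ± 0.05 (limma adjusted p = 1.79e-06), with normalised counts of 2020 and 1986 in E79Q and 2822 and 2868 in wild type. Ndc80, the microtubule-binding subunit of the complex named after it, fell by 0.31 ± 0.06 (limma adjusted p = 0.000333). Nuf2, its partner in the same complex, was not called, at 10.01 and 9.97 in E79Q and 9.999 and 10.03 in wild type, a difference of -0.03 ± 0.06 with an interval from -0.15 to 0.09. The difference between these partners was not tested. Hjurp, the chaperone that loads the centromeric histone CENP-A, differed by -0.12 ± 0.05 (limma adjusted p = 0.0742). Among alternatives that kept all libraries, Hjurp was called without the replicate block, after median centring and after quantile normalization. Its difference was -0.11 without E79Q replicate 1 and -0.13 without E79Q replicate 2, in fits that also dropped the block.

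Both members of the chromosomal passenger complex besides its kinase Aurkb were called lower, beside 18.9% of all genes tested. Cdca8 (borealin) lay at 10.54 and 10.56 in E79Q and at 10.79 and 10.77 in wild type, a fall of 0.23 ± 0.05 (limma adjusted p = 0.00185). Birc5 (survivin), which brings the complex to centromeres, lay at 10.51 and 10.47 in E79Q and at 10.63 and 10.67 in wild type, a fall of 0.16 ± 0.05 (limma adjusted p = 0.0237). In each gene both E79Q libraries lay below both wild-type libraries, a pattern found in 38.1% of all genes tested.

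All 5 spindle motors were called lower, with differences from -0.33 to -0.14, beside 18.9% called lower of all genes tested. Kif2c (MCAK), which depolymerises microtubule ends at centromeres, lay at 9.93 and 9.90 in E79Q and 10.22 and 10.26 in wild type, a fall of 0.33 ± 0.06 (limma adjusted p = 0.000255). Cenpe, the kinetochore motor that moves chromosomes to the spindle equator, fell by 0.26 ± 0.05. Kif23 (MKLP1), the motor of the central spindle, fell by 0.23 ± 0.05, and Kif11 (Eg5), which pushes spindle poles apart, by 0.19 ± 0.05. Kif20b, a motor of late mitosis and cytokinesis, fell by 0.14 ± 0.05 (limma adjusted p = 0.0454), with 10.73 and 10.77 in E79Q and 10.90 and 10.87 in wild type. Kif20b stood just inside the threshold and was not called without the mean-variance trend (adjusted p = 0.0852).

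Spindle and microtubule proteins had 4 of 6 called lower, with a median of -0.18, beside 18.9% called lower of all genes tested. Tacc3, which holds kinetochore fibres together, led with 10.86 and 10.91 in E79Q and 11.29 and 11.25 in wild type, a fall of 0.38 ± 0.05 (limma adjusted p = 1.88e-05). Gtse1, which stabilises spindle microtubules and restrains p53, fell by 0.31 ± 0.06. Psrc1, a microtubule protein of the spindle, fell by 0.21 ± 0.07 and Dlgap5 (HURP), which binds kinetochore fibres, by 0.15 ± 0.05 (limma adjusted p = 0.0362, and 0.0666 without the mean-variance trend). On the count scale, which undoes the compression of low genes, Psrc1 had a ratio of 0.785, close to that of Cdk1, from counts of 238 and 252 in E79Q and 320 and 304 in wild type. Ckap2l, a spindle pole protein, differed by -0.08 ± 0.05 (limma adjusted p = 0.180; 0.0119 without the replicate block). Hmmr, a hyaluronan receptor that also acts at spindle poles, differed by -0.08 ± 0.05 with overlapping groups. Its values were 10.99 and 11.09 in E79Q and 11.17 and 11.07 in wild type. Hmmr was called in no alternative that kept all libraries. Its difference was -0.03 without E79Q replicate 1 and -0.13 without E79Q replicate 2, in fits that also dropped the block. Because of the centring, leaving out the same-numbered wild-type library gives the same differences.

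Ubiquitin ligase factors were unequal. Cdc20, the activator of the APC/C in mitosis, lay at 11.14 and 11.05 in E79Q and at 11.42 and 11.51 in wild type, a fall of 0.37 ± 0.05 (limma adjusted p = 4.75e-05). Cdca3, which promotes the destruction of the Cdk1 inhibitor Wee1, fell by 0.29 ± 0.05. Ube2c, the ubiquitin-conjugating enzyme of the APC/C, was at 11.60 and 11.65 in E79Q and 11.75 and 11.70 in wild type. The difference of -0.10 ± 0.05 was not called (limma adjusted p = 0.0947). Among alternatives that kept all libraries, Ube2c was called after median centring and after quantile normalization.

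Of the genes of chromosome structure 2 of 4 were called lower, beside 18.9% of all genes tested. Ncapd2, a condensin I subunit, lay at 11.40 and 11.34 in E79Q and at 11.79 and 11.85 in wild type, a fall of 0.45 ± 0.05 (limma adjusted p = 2.87e-06). Top2a, the topoisomerase that untangles sister chromatids, fell by 0.36 ± 0.04, with counts of 8816 and 8893 in E79Q and 11474 and 11375 in wild type. Smc4, the condensin ATPase shared by both condensin complexes, was at 12.40 and 12.43 in E79Q and 12.46 and 12.43 in wild type, a difference of -0.03 ± 0.04 that was not called. Mki67, the proliferation marker Ki-67 that coats mitotic chromosomes, stood at the threshold, with a difference of -0.11 ± 0.04, a count ratio of 0.922 and a limma adjusted p of 0.0503. Mki67 lay lower in both pairs, by 0.15 in pair 1 and 0.08 in pair 2. Among alternatives that kept all libraries, Mki67 was not called without a filter, with only the floor genes left out, or without the mean-variance trend. In the other alternatives that kept all libraries it was called.

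None of the 3 members grouped under cytokinesis and nuclear envelope was called. Ect2, the exchange factor that activates RhoA at the division plane, was at 11.45 and 11.49 in E79Q and 11.58 and 11.54 in wild type. It differed by -0.09 ± 0.05 (limma adjusted p = 0.144). Among alternatives that kept all libraries, Ect2 was called without the replicate block and after quantile normalization. Anln (anillin), a scaffold of the contractile ring, differed by -0.08 ± 0.05 (limma adjusted p = 0.211). Lbr, the lamin B receptor, had the only difference above 0, at 11.12 and 11.21 in E79Q and 11.17 and 11.09 in wild type (0.03 ± 0.05, limma adjusted p = 0.669), and its pairs disagreed in sign. Among the 13 members not called, the lowest bound of a 95% interval was -0.23, that of Hjurp.

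Other mitotic genes, taken from lists set by function with earlier results of these data known, were also called lower more often than higher. Over 7 lists with 114 tested genes that are not members, 45 were called lower (39.5%) and 6 higher, with a median of -0.11, beside 18.9% lower and 21.5% higher of all genes tested. Spindle checkpoint and cohesion genes had 10 lower and 0 higher of 12, led by Bub1b (BUBR1), a checkpoint inhibitor of the APC/C, at 10.72 and 10.65 in E79Q and 11.17 and 11.24 in wild type. Bub1b fell by 0.52 ± 0.05 (limma adjusted p = 1.19e-06), and Espl1 (separase), which cuts cohesin, by 0.24 ± 0.05. In the cytokinesis list 7 of 10 were lower and 0 higher. There Kif20a, the motor that carries the passenger complex to the midzone, lay at 10.67 and 10.61 in E79Q and at 11.28 and 11.33 in wild type. It fell by 0.67 ± 0.05 (limma adjusted p = 6.36e-08), further than any of the 37 members, to a count ratio of 0.593. Racgap1, the partner of Kif23 in centralspindlin, fell by 0.35 ± 0.05.

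The remaining kinesins and spindle proteins, a list that also holds Kif20a, had 11 lower and 1 higher of 27. Fam83d, which helps align chromosomes, fell by 0.42 ± 0.06, and Haus6, a subunit of the augmin complex, rose by 0.19 ± 0.06. Subunits and regulators of the APC/C had 8 lower and 0 higher of 16, among them both inhibitor and activator: Fbxo5 (EMI1) fell by 0.42 ± 0.07 and Fzr1 (CDH1) by 0.34 ± 0.06. Mitotic entry regulators had 3 lower (21.4%) and 1 higher of 14, a share lower near the 18.9% of all genes tested. Ccnf (cyclin F) fell by 0.44 ± 0.06 and Mastl (Greatwall kinase) by 0.21 ± 0.06, while Cdc25b, a phosphatase that activates Cdk1, rose by 0.22 ± 0.05 (limma adjusted p = 0.00276).

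Kinetochore and centromere genes outside the member list had 6 lower (18.8%) and 3 higher of 32, with a median of -0.05, so the share lower was that of all genes tested (18.9%). Spc25, a subunit of the NDC80 complex, fell by 0.38 ± 0.06 and Itgb3bp (CENP-R) by 0.30 ± 0.07. Dsn1 and Nsl1, subunits of the MIS12 complex, rose by 0.21 ± 0.06 and 0.24 ± 0.06, and Cenpq, of the inner kinetochore, by 0.22 ± 0.07. Other condensin subunits had 2 lower and 1 higher of 6: Ncaph and Ncapg of condensin I fell by 0.21 ± 0.05 and 0.14 ± 0.05, and Ncapg2 of condensin II rose by 0.16 ± 0.05.

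**Figure D4:**
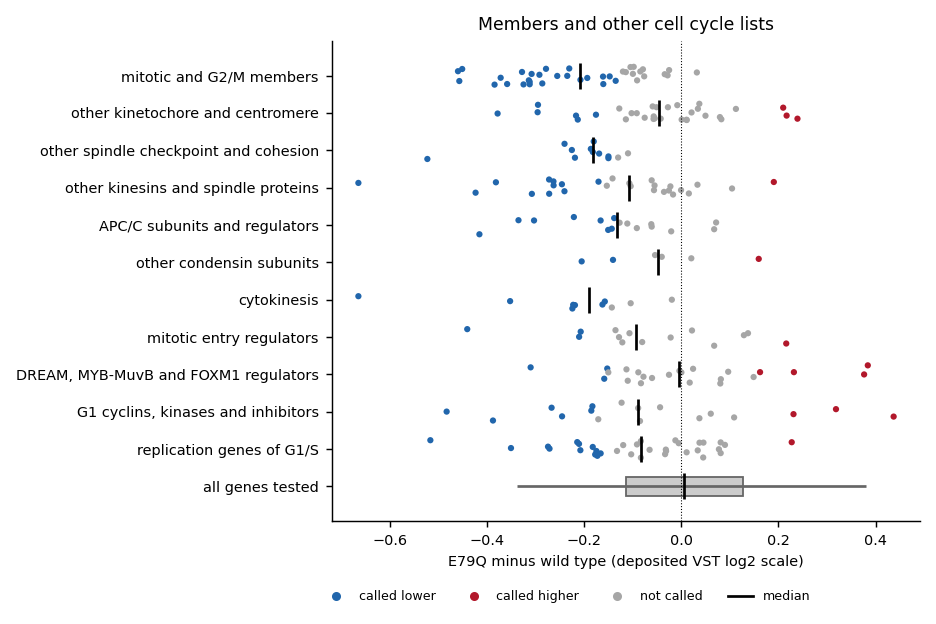
Difference of E79Q minus wild type (VST log2) for every tested gene of the members and of 10 other cell cycle lists, coloured by call, with the median as a vertical bar; the bottom row gives all 10857 genes tested as the box of the middle range with lines from the 5th to the 95th percentile (-0.34 to 0.38). The members' median lies at -0.21 and the regulators' at 0.00.

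Of 23 tested regulators in the DREAM, MYB-MuvB and FOXM1 system 3 were called lower (13.0%) and 4 higher (17.4%), under the 18.9% and 21.5% of all genes tested. Their median was 0.00, and after median centring 5 were lower and 4 higher. Foxm1, the activator of G2/M genes, fell by 0.15 ± 0.05 (limma adjusted p = 0.0198), with 11.16 and 11.14 in E79Q and 11.29 and 11.31 in wild type. Its call was lost without the mean-variance trend (adjusted p = 0.0526). Mybl2 (B-MYB) differed by -0.08 ± 0.05 (limma adjusted p = 0.26) and E2f1 by 0.10 ± 0.06 (limma adjusted p = 0.192). E2f1 was called, at 0.13, without E79Q replicate 2 (adjusted p = 0.0414) and without wild-type replicate 2 (adjusted p = 0.0423).

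Lin54, the subunit through which MuvB contacts the CHR in both the repressing and the activating complex, lay at 10.44 and 10.48 in E79Q and at 10.09 and 10.05 in wild type, a rise of 0.38 ± 0.05 (limma adjusted p = 4.42e-05). Rb1, the retinoblastoma protein, lay at 10.19 and 10.28 in E79Q and at 9.90 and 9.82 in wild type, a rise of 0.38 ± 0.06 (limma adjusted p = 0.000111), and Rbl1 (p107) rose by 0.23 ± 0.05. Rbl2 (p130), the other pocket protein of DREAM, differed by -0.15 ± 0.06 (limma adjusted p = 0.0502). E2f4, Lin9, Lin37 and Lin52, also parts of DREAM, were not called, with differences from -0.03 (Lin9) to 0.08 (Lin37). Rbbp4 and E2f5 of the same list were not called either. Rbbp4 differed by -0.11 ± 0.04 (limma adjusted p = 0.0616) and E2f5 by -0.11 ± 0.07 (limma adjusted p = 0.199). E2f2 fell by 0.31 ± 0.07 and Tfdp1, the E2F partner, by 0.16 ± 0.05. Nfya, the NF-Y subunit that contacts the CCAAT box, rose by 0.16 ± 0.05 (limma adjusted p = 0.0219) but was not called after quantile normalization (adjusted p = 0.0558). Trp53 differed by 0.11 ± 0.05 (limma adjusted p = 0.0831; called without the replicate block, adjusted p = 0.0280), and Cdkn1a (p21), the Cdk inhibitor it induces, by -0.04 ± 0.06 (limma adjusted p = 0.580).

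Genes of the earlier cycle were also described. The replication genes of G1/S had 12 lower and 1 higher of 34 (35.3% lower and 2.94% higher), with a median of -0.08. Among all genes tested 18.9% were called lower and 21.5% higher. Tyms, which makes thymidylate, fell by 0.52 ± 0.06 and Mcm7, of the replicative helicase, by 0.35 ± 0.05, while Cdt1, which loads that helicase, rose by 0.23 ± 0.05. G1 cyclins, kinases and inhibitors had 6 lower (35.3%) and 3 higher (17.6%) of 17, so the share higher was under that of all genes tested. Cdkn2a, which encodes p16INK4a and p19ARF, lay at 11.33 and 11.32 in E79Q and 11.80 and 11.81 in wild type, a fall of 0.48 ± 0.05 (limma adjusted p = 8.24e-07). The inhibitor gene Cdkn2c fell by 0.39 ± 0.06. Against them the D-type cyclins Ccnd2 and Ccnd1 rose by 0.44 ± 0.05 and 0.23 ± 0.06, and the inhibitor gene Cdkn1c by 0.32 ± 0.07. The difference between the members and these lists was not tested.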

How the data were processed

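Poly(A) RNA of 2 E79Q and 2 wild-type libraries was analysed from 1 table. The authors deposited VST log2 values, per the file headers. Per the submitters' processing notes the authors worked on mm9 and used Salmon 0.11.3, STAR 2.5.2b, DESeq2 and DESeq 1.22.2, with no roles stated; annotation and strand setting are not known here. Values ran from 6.90 to 18.7, and 8120 genes lay at a floor of 6.98 in all libraries. In each gene the 2 libraries of replicate 1 had the same sum as those of replicate 2 (largest gap 1.31e-13), so the values had been centred by number before deposit. What same-numbered libraries shared is not given.

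Genes with a value at least 1 above the lowest in at least 2 libraries were tested with limma 3.58.1 (R 4.3.3): genotype with a replicate block (1 residual degree of freedom, prior 14.6), empirical Bayes with trend, two-sided, Benjamini-Hochberg over all genes tested. Normalised counts come from inverting the deposited VST, taken to have its usual parametric form, from the floor upwards; lower values became 0. The fit was tested on simulated data before use. Per-library values are given for the largest and smallest difference in each role, all kinases and all cyclins. From other lists the 2 largest called and up to 3 opposed genes are named, beside Foxm1, Mybl2, E2f1, Rb1, Trp53 and Cdkn1a. Rbl1, Rbl2, Rbbp4, E2f4, E2f5, Lin9, Lin37, Lin52, Nfya and Tfdp1 were added after their values were seen. Members and lists were chosen with earlier results of these data known.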

Additional observations from a re-analysis of the deposited data

How the results depend on the processing

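The members' differences kept their sign in 515 of 517 values over 14 alternatives, and 21 of the 24 called members stayed called in each of the 13 alternatives other than the fit without a filter that tested them. The exceptions in sign were Lbr without E79Q replicate 2 and without wild-type replicate 2 (-0.0127 each). Leaving out 1 library at a time gave Lbr -0.0127 to 0.0766. Alternatives that changed only the filter, the block or the empirical Bayes step keep each difference by construction. In those alternatives a sign could not change, so the tally of signs is no measure of how firm they are. Without any filter 0 genes were called higher, 0 lower and 0 members lower, with 3942 genes and 21 members at an unadjusted p under 0.05. That fit took in 8120 genes with no variance, and the prior degrees of freedom fell to 0.636. With those genes alone left out, an alternative chosen after seeing the data, 2007 genes were called higher, 1833 lower and 21 members lower, Birc5, Kif20b and Dlgap5 losing the call. Leaving out the replicate block, with 2 residual degrees of freedom though the values were already centred, gave 3122 genes higher, 2882 lower and 30 members lower. On the log2 scale of inverted counts the members' median was -0.261 with a pseudocount of 1 and -0.259 with 10, because that scale does not compress. Median centring called 27 members lower and quantile normalization 28. Without the mean-variance trend 22 members were lower, Kif20b and Dlgap5 losing the call. Among the other lists, the spindle checkpoint list went to 6 lower with the floor genes left out, the APC/C list to 5 lower there and without the trend, and the condensin list to 1 lower and 0 higher in both. Without the block, mitotic entry regulators had 7 lower and 3 higher, kinetochore genes 10 lower and 5 higher, and kinesins 17 lower and 2 higher. The regulators then had 6 lower and 5 higher, condensins 4 lower and 0 higher, the APC/C list 9 lower and 1 higher, and G1/S replication genes 17 lower and 4 higher. Mitotic entry regulators had 5 lower and 1 higher after median centring or quantile normalization. Leaving out 1 library leaves a lone library, assumed to vary like the pair of the other genotype; because of the centring, leaving out either library of a replicate gives the same differences, so the 4 fits hold 2 sets of values. They gave, without the block, 25 to 29 members lower, a median of -0.231 to -0.187, 2617 to 2924 genes higher and 2391 to 2544 lower; without replicate 1 of either genotype 16 G1/S replication genes were lower and 2 higher, and 4 mitotic entry regulators lower and 3 higher. Deviations of same-numbered libraries correlate at -1 because of the centring, and crossed pairs would leave no residual, so they were not run. Sequencing depth is unknown, and precision is limited by the 2 libraries per group.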
